A study of Mus musculus with 60 samples.

Results

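The 100 genes described here were chosen by how far their signal fell in mouse striatum to 8 h, set against 1 h. Of 9909 genes with a probe of mean log2 signal 8 or more over the 60 arrays, they had the lowest values of the mean of the 15 arrays at 8 h minus the mean of the 15 arrays at 1 h in the deposited normalised values. Where a gene had several such probes, the brightest was taken. The best-known immediate early, clock and heat shock genes had been left out by name beforehand, and 20 such genes (Fos, Arc, Egr1, Junb, Npas4, Arntl, Hspa5 and others) lay at or below the last of the 100. The 100 genes are thus those that were high early and low late once these were set aside.

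The series holds RNA from the striatum of C57BL/6J mice on Illumina whole-genome bead arrays, in 20 groups of 3 arrays. Mice received a single injection of imipramine at 10 mg/kg, of fluoxetine or tianeptine at 20 mg/kg each, or of saline, or were naive, and were killed at 1, 2, 4 or 8 h. The injected mice thus gave 12 arrays at each time and the naive mice, which had no injection, gave 3. The study's methods state adult males, a piece of tissue that joined the rostral caudate putamen with the nucleus accumbens, and RNA pooled from 2 mice for each array. The naive arrays carry no treatment, but those of 1 h lay on other chips than those of 4 and 8 h, so hours and chip cannot be told apart in them without the other arrays. In a bulk sample, fewer cells of a type and less RNA per cell cannot be told apart.

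Handling, a needle and drug action all set off a wave of transcription in brain. Calcium and ERK signalling first switch on transcription factors, which are short-lived, and then effector genes such as growth factors, synaptic proteins and feedback inhibitors of the same kinases. Slower stress programmes run beside it: glucocorticoid targets, cytosolic chaperones under heat shock factor, and chaperones of the endoplasmic reticulum (ER) under the unfolded protein response. Many of these genes also follow the time of day.

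Promoter windows, from 250 bases before to 50 bases after a transcription start, were found in RefSeq's table for mouse (build GRCm38.p6) for 81 of the 100 genes, in 119 windows. The cAMP response element TGACGTCA (CRE), searched on both strands like all the motifs here, occurred in the windows of 8 of these 81 genes (9.88%), against 3.72% of 8042 ranked genes with a window and 2.03% of all 27025 genes. The 8 were Sstr2, Inpp4a, Zdbf2, Slc25a25, Sphk2, Tra2a, Nkrf and Btaf1. The shorter CRE core TGACG, which every full CRE contains, was found in 39.5% of the genes, against 35.9% of the ranked genes. The E-box CACGTG occurred in 8 genes (9.88%, against 965 of the 8042 ranked genes), and the D-box TTATGTAA and the ROR element, AANTN followed by GGTCA, in 0 genes each (against 0.759% and 0.535%). A CArG box was found in Nebl and Rnd3 alone (2.47%, against 1.73%). The heat shock element, GAA, TTC and GAA each set apart by 2 free bases, was found in Chordc1 alone (1.23%, against 0.473%). The ER stress element, CCAAT and CCACG set apart by 9 free bases, was searched because ER chaperones were known to be among the genes, and occurred in Creld2 and Calr (2.47%, against 0.149%). A match is a run of letters and not a shown binding site, and the member windows held more G and C (median 61.67%) than all windows (52.67%). The windows below are shown with the motif in capitals, because Creld2 and Tra2a passed tests given later, Calr and Chordc1 carry the chaperone motifs, and Sstr2 and Slc25a25 carry the CRE.
Creld2: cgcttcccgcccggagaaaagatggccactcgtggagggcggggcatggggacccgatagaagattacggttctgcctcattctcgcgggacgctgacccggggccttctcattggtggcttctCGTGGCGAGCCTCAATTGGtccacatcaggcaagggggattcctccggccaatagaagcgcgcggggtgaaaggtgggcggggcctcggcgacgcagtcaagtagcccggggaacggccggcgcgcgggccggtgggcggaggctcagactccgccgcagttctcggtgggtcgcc
Calr: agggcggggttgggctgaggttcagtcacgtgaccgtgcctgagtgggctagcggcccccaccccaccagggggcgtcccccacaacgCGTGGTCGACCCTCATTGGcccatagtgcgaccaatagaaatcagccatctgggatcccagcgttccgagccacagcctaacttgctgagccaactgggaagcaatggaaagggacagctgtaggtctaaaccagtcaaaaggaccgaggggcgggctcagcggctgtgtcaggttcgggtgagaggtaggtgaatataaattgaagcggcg
Chordc1: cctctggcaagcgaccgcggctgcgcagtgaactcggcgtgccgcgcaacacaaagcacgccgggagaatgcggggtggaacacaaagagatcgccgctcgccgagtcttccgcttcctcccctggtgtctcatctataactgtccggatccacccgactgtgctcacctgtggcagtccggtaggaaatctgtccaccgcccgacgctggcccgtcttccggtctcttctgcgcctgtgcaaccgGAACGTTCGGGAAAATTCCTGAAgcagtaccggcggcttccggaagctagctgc
Sstr2: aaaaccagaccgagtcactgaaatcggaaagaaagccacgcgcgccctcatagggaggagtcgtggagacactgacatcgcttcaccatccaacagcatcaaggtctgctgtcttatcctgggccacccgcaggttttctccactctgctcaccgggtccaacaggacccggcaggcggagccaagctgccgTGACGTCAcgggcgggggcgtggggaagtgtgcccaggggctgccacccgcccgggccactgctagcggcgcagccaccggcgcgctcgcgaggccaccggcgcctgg
Tra2a: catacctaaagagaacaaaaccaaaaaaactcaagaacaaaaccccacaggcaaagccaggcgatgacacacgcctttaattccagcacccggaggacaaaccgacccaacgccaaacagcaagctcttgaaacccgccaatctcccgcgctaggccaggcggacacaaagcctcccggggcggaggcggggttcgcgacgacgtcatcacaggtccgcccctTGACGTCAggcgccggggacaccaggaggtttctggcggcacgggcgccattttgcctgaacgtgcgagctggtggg
Slc25a25: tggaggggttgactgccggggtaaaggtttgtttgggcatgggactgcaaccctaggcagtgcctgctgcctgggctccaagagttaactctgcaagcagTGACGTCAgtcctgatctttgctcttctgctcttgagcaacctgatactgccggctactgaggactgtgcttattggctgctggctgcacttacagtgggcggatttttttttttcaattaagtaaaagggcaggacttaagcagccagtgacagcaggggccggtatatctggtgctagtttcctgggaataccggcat
The windows lie at chr15:88819396-88819695 on the plus strand for Creld2, chr8:84846882-84847181 on the minus strand for Calr, chr9:18292017-18292316 on the plus strand for Chordc1, chr11:113619077-113619376 on the plus strand for Sstr2, chr6:49264003-49264302 on the minus strand for Tra2a and chr2:32424017-32424316 on the minus strand for Slc25a25. In Chordc1, 3 overlapping heat shock elements spanned the start site. The ER stress element began at position -126 from the start of Creld2 and -162 from that of Calr. The CRE began at position -58 in Sstr2, -27 in Tra2a and -150 in Slc25a25.

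The arrays lay on 10 chips of 6, and chip was the main source of spread: 28.9% of the variance fell on a leading component that chip alone accounted for almost fully (R² = 0.985). Markers of medium spiny neurons, the main striatal cell type, had a mean log2 signal of 12.83 to 13.40 on every array, so the defining markers of the labelled tissue were present. The choroid plexus list (9 measured markers) stood apart at 1 h on tianeptine replicate 3 (10.78), fluoxetine replicate 2 (9.90) and naive replicate 3 (9.30), against 8.19 to 8.99 on the other arrays of 1 h and at most 9.17 at 8 h. At 2 and 4 h it reached 9.67 and 9.52, each on saline replicate 3. The cortical excitatory neuron list was low on that same naive array (9.91, against 10.25 to 10.52 on the other arrays at 1 h). The 3 were also the highest of 1 h over the 7 choroid plexus markers that are not among the 100 genes. Counts of genes passing tests that use the arrays of 1 h are given with and without them, except for each drug against saline. This setting was chosen after seeing the data. Without them, the rule kept 70 of the 100 genes.

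The rule's values ran from -0.48 for Etv5, an ETS transcription factor induced by ERK signalling, to -0.23 for Luzp1, on the log2 scale of the deposited values. Next came Ppp2r1b, a scaffold subunit of protein phosphatase 2A (-0.48), Midn, which encodes midnolin, a carrier of short-lived nuclear proteins to the proteasome (-0.47), Tnfrsf25, a death receptor of the TNF family (-0.46), and Galnt9, a starter enzyme of O-glycosylation (-0.43). Sstr2, a somatostatin receptor (-0.42), Vstm4 (-0.38), Pdp1, the phosphatase that switches pyruvate dehydrogenase on (-0.38), the adaptor Dok3 (-0.38) and P4ha1, a collagen prolyl hydroxylase subunit (-0.37), completed the first 10. The last 5 inside the limit were Ddit4, Btaf1, Spred1, Tle4 and Luzp1 (-0.229 to -0.227), and the first 5 outside were Cbln2, Pdk4, Spast, Tnfrsf21 and Etl4 (-0.224 to -0.221), so the limit fell in a dense part of the ranking. All these values are small, and they chose the genes, so no test is given on them.

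Across the 5 conditions, 83 of the 100 genes were lower at 8 h than at 1 h in every condition, 14 in 4 conditions and 3 (Myl4, Ttr and Ddit4) in 3. These and the following 8 h minus 1 h values are differences of plain means on the signals normalised here, they share arrays with the rule, and are given as a description. The median change was -0.27 with imipramine, -0.37 with fluoxetine, -0.28 with tianeptine, -0.39 with saline and -0.18 in naive mice, against -0.01 to 0.01 in each condition over the ranked genes. Without the 3 arrays high in choroid plexus markers it was -0.33 with fluoxetine, -0.24 with tianeptine and -0.14 in naive mice. Naive mice alone therefore showed 87 of the 100 genes lower at 8 h, with 13 higher. The fall was larger than the naive one in 85 genes for all injected mice, and in 69 with imipramine, 80 with fluoxetine, 72 with tianeptine and 92 with saline. The gene with the largest naive fall was Cobl, an actin nucleator (-0.54), followed by Cldn5, a tight junction protein of brain endothelium (-0.43), and Etv5 (-0.42). The highest values in naive mice were those of Ttr (0.70) and Klf2 (0.35). Within chips, where arrays at both times sat on 1 chip, the median of the 100 genes was negative on all 10 chips (-0.41 to -0.21, with 88 to 98 genes negative).

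**Figure D1:**
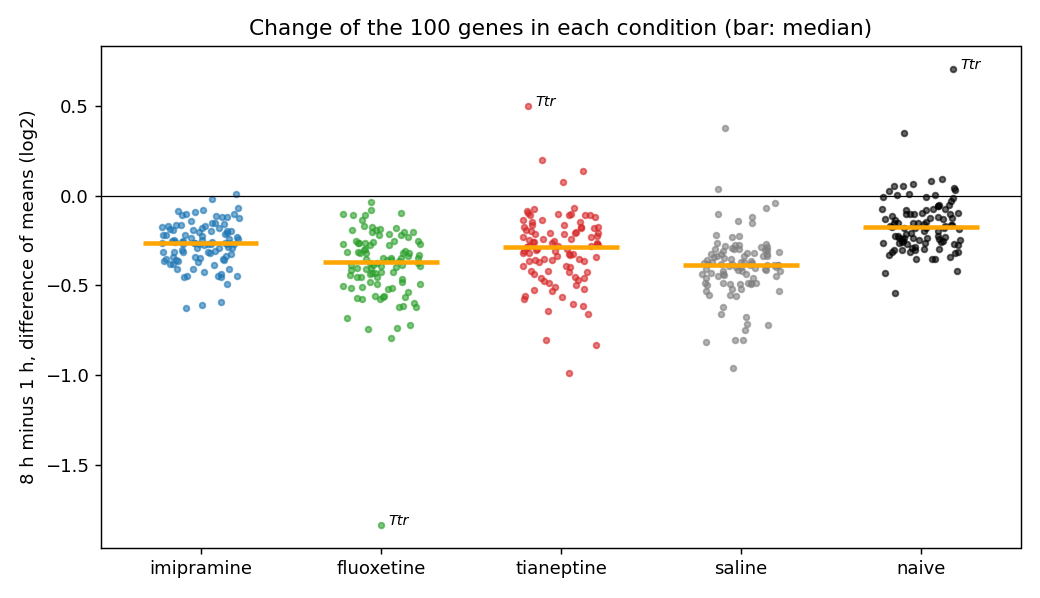
Each point is 1 of the 100 genes: the 8 h mean minus the 1 h mean (log2, vertical axis) over 3 arrays at each time, by condition, and the orange bar is the median of the genes. The medians lie between -0.39 (saline) and -0.18 (naive), and Ttr lies far from the other genes with fluoxetine (-1.83).

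Over all 15 arrays at each time, a median of 10.7% of the fall had taken place by 2 h and 39.9% by 4 h. The arrays of 1 and 8 h at both ends of this fall chose the genes, so the time course is a description. In 36 genes the mean at 2 h was above that at 1 h, among them Pdp1, Ppp2r1b, Creld2 and Vgf, and in 65 genes less than 50% of the fall had taken place by 4 h. In 9 genes 50% or more had taken place by 2 h, and in 5 genes the 4 h mean lay below the 8 h mean. Klf2 was of the last kind, with means of 9.53 at 1 h, 9.27 at 2 h, 8.9998 at 4 h and 9.26 at 8 h, and Ddit4 likewise had 11.10, 10.97, 10.74 and 10.87. Etv5 held its level until 4 h, with means of 10.33, 10.28, 10.23 and then 9.84.

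The 2 h and 4 h arrays took no part in the difference that chose the genes, so the step between these times could be tested. Of the 100 genes, 3 fell and 0 rose at 4 h against 2 h, averaged over the 5 conditions, at an adjusted p under 0.05 in limma. Of all 45281 probes 0.0861% were called (39 probes), and of the 9909 ranked genes 18. Pdp1, Ppp2r1b and Creld2, an ER chaperone with disulfide isomerase motifs, were the 3. By sign, 89 of the 100 genes were lower at 4 h, with a median of -0.10 against -0.0006 over all probes. An unadjusted p under 0.05 was found for 47, against 6.95% of all probes and 8.12% of the ranked genes. Pdp1 had a signal of 9.92, 10.32 and 10.54 (lowest, median and highest of 12 injected arrays) at 4 h, against 10.20, 10.56 and 10.84 at 2 h. In naive mice Pdp1 read 10.13, 9.87 and 10.21 at 4 h, against 10.15, 10.18 and 10.39 at 2 h. The ranges overlapped in both sets of mice, and the fitted difference was -0.25 (SE 0.04, adjusted p = 0.00308). Ppp2r1b had 8.74, 9.11 and 9.32 on the injected arrays at 4 h, against 9.04, 9.43 and 9.80 at 2 h. Its naive arrays read 9.15, 8.98 and 9.08 at 4 h, against 8.97, 9.21 and 9.40 at 2 h, and the fitted difference was -0.29 (SE 0.05, adjusted p = 0.00457). Creld2 had 9.88, 10.04 and 10.43 on the injected arrays at 4 h, against 10.01, 10.23 and 10.59 at 2 h, with overlap. Its naive arrays read 9.87, 9.83 and 9.95 at 4 h, all below the 10.01, 10.01 and 9.98 at 2 h. The difference of -0.21 (SE 0.05) lay at the threshold (adjusted p = 0.05), and lost its call in 22 of 30 fits that left out 1 array each. Pdp1 and Ppp2r1b lost theirs in 0 of these fits. Under median centring of each array or z-scores within each chip 0 of the 100 genes passed, and with no chip block 1 did. Another probe of Creld2 passed the same test (-0.25, adjusted p = 0.032). The next genes were Rnd3 (-0.23, adjusted p = 0.058), Dok3 (-0.21, adjusted p = 0.185), Depp1 (-0.31, adjusted p = 0.21) and Calr, the ER chaperone calreticulin (-0.26, adjusted p = 0.232). Cldn5 went the other way (0.20, adjusted p = 0.406). Within chips the median of the genes was negative on 9 of 10 chips (-0.27 to -0.0022) and positive on chip 2 (0.18), where a tianeptine array at 4 h stood against a saline and a naive array at 2 h. All 3 called genes were higher at 4 h on chips 2 and 6, and Pdp1 and Creld2 also on chip 4. Pdp1 differed by 0.23, 0.05 and 0.06 on chips 2, 4 and 6. All 3 were lower at 4 h on the other chips.

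Injected mice were next compared with naive mice at the same hour to see what injection, with a drug on 9 of the 12 arrays at each time, added to the passing hours. The arrays of 1 and 8 h also chose the genes, so results at these times draw in part on the rule's own values. At 1 h, 2 of the 100 genes were higher in injected mice at an adjusted p under 0.05 and 0 were lower. Of all probes 0.0221% were called (10 probes), and of the 9909 ranked genes 4. The 2 were Klf2, a Krüppel-like transcription factor known from endothelium and as an early gene, and Dnajb5, a co-chaperone of Hsp70. Klf2 read 9.11, 9.65 and 10.29 (lowest, median and highest of 12 injected arrays), against 8.81, 9.08 and 8.74 on the 3 naive arrays. Every injected array was above every naive array, and the fitted difference was 0.81 (95% interval 0.51 to 1.12, adjusted p = 0.0172). Dnajb5 read 8.42, 8.7996 and 9.02 on the injected arrays, against 8.47, 8.11 and 8.23 on the naive arrays. The groups overlapped, with 10 injected arrays above the highest naive array, and the difference was 0.53 (0.32 to 0.75, adjusted p = 0.0423). Dok3 read 9.71, 10.02 and 10.45 in injected mice, against 9.51, 9.49 and 9.57 in naive mice, with no overlap, and missed the threshold (0.49, adjusted p = 0.0707). Midn read 11.93, 12.32 and 12.65, against 11.68, 11.83 and 11.57, again with no overlap (0.58, adjusted p = 0.0926). Ppp2r1b read 9.22, 9.41 and 9.56, against 8.98, 8.88 and 9.15, with no overlap either (0.40, adjusted p = 0.161).

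In all, 9 of the 100 genes had every injected array above every naive array at 1 h, where this held for 0.375% of all probes: Ppp2r1b, Midn, Dok3, P4ha1, Inpp4a, Tlnrd1, Creld2, Klf2 and Luzp1. The reverse, every injected array below every naive array, held for 0 genes and for 0.179% of all probes. At 1 h 43 of the 100 genes had an unadjusted p under 0.05, against 6.46% of all probes and 7.93% of the ranked genes. In injected mice 95 were higher, with a median difference of 0.20 against -0.0006 over all probes. A high injected array at 1 h raises both this difference and a gene's place under the rule. These counts and the calls of Klf2 and Dnajb5 are therefore a description. The 8 h minus 1 h values were -0.43 for Klf2 and -0.37 for Dnajb5 in injected mice, against 0.35 and 0.05 in naive mice. Both calls were lost without naive replicate 2, naive replicate 3 or saline replicate 3 of 1 h, and without the 3 arrays high in choroid plexus markers (adjusted p = 0.507 for both genes), where 93 of the 100 genes remained higher. On the 2 chips that held both an injected and a naive array of 1 h, the medians were 0.26 and 0.25, with 87 and 80 genes higher, and Klf2 differed by 1.21 and 0.94 and Dnajb5 by 0.91 and 0.52.

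**Figure D2:**
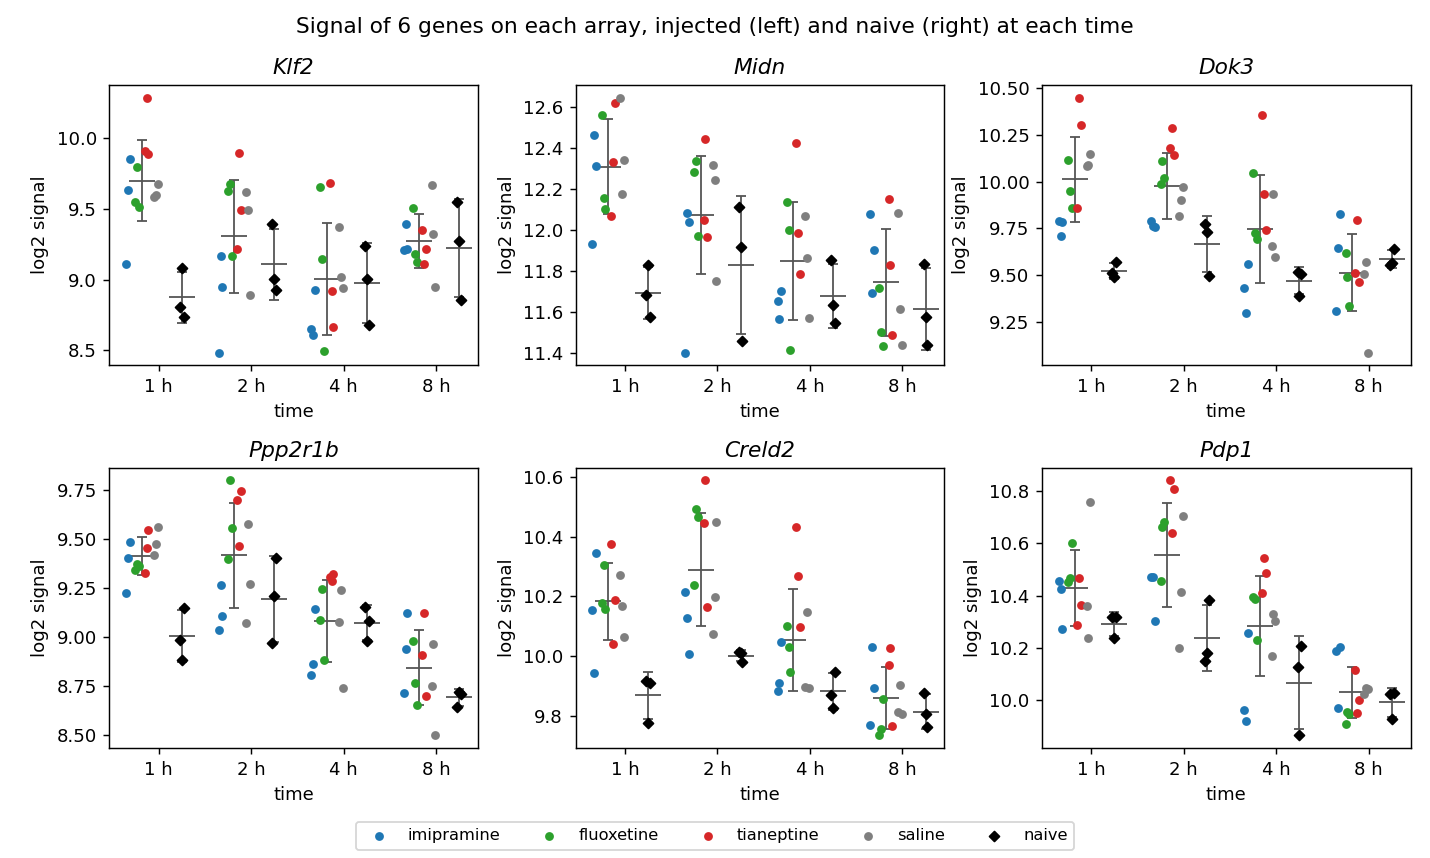
Log2 signal (vertical axis) of 6 genes on each of the 60 arrays, by time, with the 12 injected arrays on the left in 4 colours and the 3 naive arrays on the right as black diamonds. Horizontal marks and bars are the mean and SD of each set. At 1 h the injected arrays of Klf2, Midn, Dok3, Ppp2r1b and Creld2 all lie above the naive arrays, and at 8 h the sets overlap for all 6 genes.

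The median difference between injected and naive mice was smaller from 2 h on. Since the arrays of 1 and 8 h also chose the genes, this decline and the 8 h values are a description. At 2 h, 72 of the 100 genes were higher in injected mice (median 0.09; 35 under median centring of each array in place of quantile normalisation), at 4 h 68 (median 0.07) and at 8 h 75 (median 0.07). None passed the test at these times (0 of 100, with 0.00883%, 0.00663% and 0% of all probes called in limma). At an unadjusted p under 0.05 there were 23, 11 and 3 genes, against 6.42%, 3.97% and 4.49% of all probes. Of the ranked genes, which are bright like the 100, the shares were 8.68%, 3.44% and 2.25%. At 2 h the smallest p belonged to Pdp1 (0.30, adjusted p = 0.304), to Irs2, an adaptor of the insulin receptor (0.56, adjusted p = 0.347), and to Hax1, a mitochondrial survival protein (0.47, adjusted p = 0.357). Mest, an imprinted gene, had every injected array above every naive array at 2 h (8.56, 8.98 and 9.52, against 8.52, 8.31 and 8.47 in naive mice), where 0.141% of all probes did. At 4 h the smallest p belonged to the membrane metalloproteinase Mmp14, which was lower in injected mice (-0.39, adjusted p = 0.543), to Pdp1 (0.22, adjusted p = 1) and to the transporter Slc47a1 (-0.46, adjusted p = 1). At 8 h it belonged to Nptx2, a neuronal pentraxin that clusters AMPA receptors. Nptx2 read 10.54, 10.75 and 11.04 on the injected arrays, against 10.55, 10.35 and 10.35 on the naive arrays, so that 11 of 12 were above the highest naive array (0.38, adjusted p = 1). Tra2a (0.22) and Cobl (0.21) followed, with an adjusted p of 1 each.

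**Figure D3:**
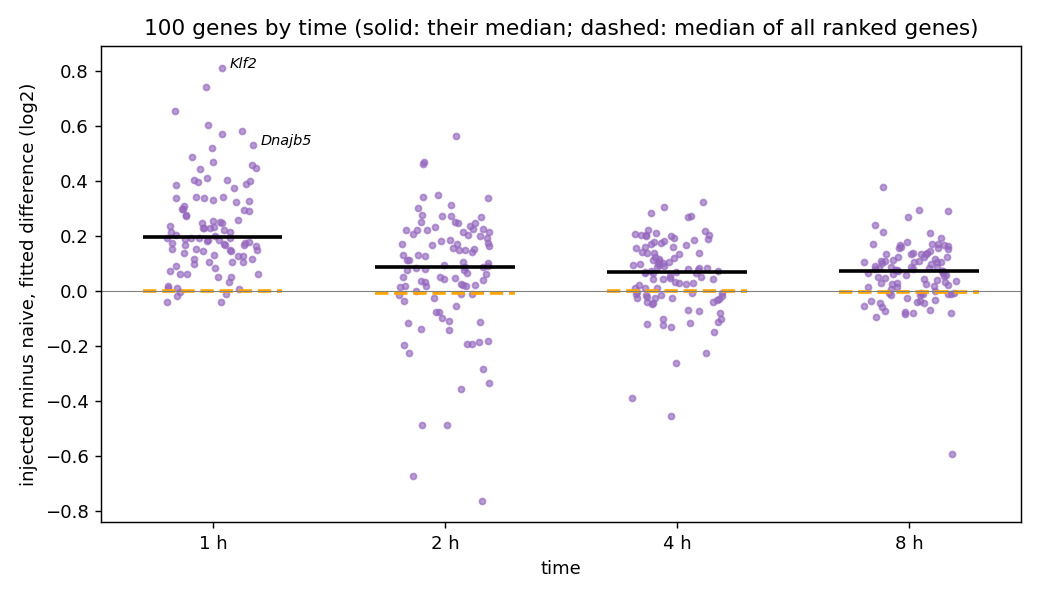
Each point is 1 of the 100 genes: the fitted difference of injected minus naive mice (log2, vertical axis) at each time. The solid bar is the median of the 100 genes and the dashed bar that of all ranked genes. The dashed bar lies between -0.0083 and -0.0011, while the median of the 100 is 0.20 at 1 h and 0.07 to 0.09 later. The arrays of 1 and 8 h also chose the genes.

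Averaged over the 4 times, injected minus naive mice gave calls at an adjusted p under 0.05 for 0.157% of all probes (71 probes) and for 41 of the 9909 ranked genes. Of the 100 genes, 8 were called higher in injected mice and 0 lower. They were Dok3 (0.25, adjusted p = 0.0121), Creld2 (0.20, adjusted p = 0.0152), Pdp1 (0.19, adjusted p = 0.0152), Nptx2 (0.27, adjusted p = 0.0159), Midn (0.29, adjusted p = 0.0164), Dnajb5 (0.23, adjusted p = 0.0312), Ppp2r1b (0.21, adjusted p = 0.0312) and the splicing factor Tra2a (0.20, adjusted p = 0.0483). Of the 100 genes, 90 were higher on this average. The average includes the 1 and 8 h arrays that chose the genes, so the calls and this count draw in part on the rule's own values. The call rested on the few naive arrays: leaving out naive replicate 2 of 8 h gave 0 genes, and leaving out naive replicate 2 of 1 h or of 4 h gave 1. Without the 3 arrays high in choroid plexus markers, Dok3 (adjusted p = 0.0275) and Creld2 (adjusted p = 0.0318) still passed and the other 6 did not.

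Whether the change over the hours itself differed between injected and naive mice was tested as an interaction, 8 h minus 1 h in injected mice minus the same in naive mice. None of the 100 genes passed (0 of 100, with 0% of all probes called). An unadjusted p under 0.05 was found for 10, against 4.93% of all probes and 3.59% of the ranked genes. Of the 100, 85 were below 0 and 15 above it, with a median of -0.16. Under median centring 27 were above 0, and 13 without the 3 arrays high in choroid plexus markers, with 0 calls. The arrays of 1 and 8 h that chose the genes, 12 of 15 of them injected at each time, also make up this difference, so these counts are a description and not independent of the choice. The smallest p belonged to Dok3 (-0.57), Klf2 (-0.77) and Tlnrd1, a talin rod protein (-0.45), with an adjusted p of 0.895 each. Saline mice alone differed from naive mice at 1 h in 0 of the 100 genes in limma (0.011% of all probes were called), with Dnajb5 (0.61, adjusted p = 0.18), Dok3 (0.58, adjusted p = 0.18) and Midn (0.66, adjusted p = 0.298) nearest to the threshold. Of the 100 genes, 91 were higher in saline mice. An unadjusted p under 0.05 was found for 43, against 6.6% of all probes and 7.93% of the ranked genes. Saline arrays of 1 h were among those that chose the genes, so these counts are a description too. Without the 3 arrays high in choroid plexus markers, naive replicate 3 among them, 93 genes were higher and 0 passed.

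No gene of the 100 passed a test between the drugs and saline at 1 h. The limma F test over the 3 drugs and saline called 0 of 100 (0% of all probes). It gave 8 genes at an unadjusted p under 0.05, against 4.16% of all probes and 2.82% of the ranked genes. It again called 0 without the 3 arrays high in choroid plexus markers, at the same adjusted threshold. In limma each drug against saline likewise called 0 of 100 (0% of all probes). Higher than with saline were 18 genes with imipramine (median -0.09), 33 with fluoxetine (median -0.04) and 36 with tianeptine (median -0.05). The ranked genes had medians of -0.0063, -0.0047 and -0.0146. These 3 comparisons are given with all arrays only, among them the fluoxetine and tianeptine arrays high in choroid plexus markers. The gene nearest to a call was Ddit4, an inhibitor of mTORC1 that glucocorticoids induce (F test, adjusted p = 0.324). At 1 h Ddit4 read 10.83, 11.13 and 11.22 with imipramine, 11.24, 11.33 and 11.35 with fluoxetine and 11.61, 11.27 and 12.10 with tianeptine, against 11.02, 10.61 and 10.67 with saline and 10.77, 10.86 and 10.54 in naive mice. All fluoxetine and tianeptine arrays were above all saline and naive arrays, while imipramine overlapped with saline. The highest value, 12.10, was on tianeptine replicate 3, which was high in choroid plexus markers. The difference from saline was 0.89 with tianeptine (95% interval 0.54 to 1.25, adjusted p = 0.25), 0.54 with fluoxetine (0.20 to 0.88, adjusted p = 0.888) and 0.29 with imipramine (-0.06 to 0.64, adjusted p = 1). Against naive mice the difference of Ddit4 was 0.44 for all injected mice (adjusted p = 0.448) and 0.01 for saline mice (adjusted p = 0.996). The 8 h minus 1 h value of Ddit4 was -0.83 with tianeptine, -0.38 with fluoxetine and -0.34 with imipramine. It was 0.38 with saline and 0.03 in naive mice. Drug and saline arrays of 1 h were among those that chose the genes. The counts here and the readings of Ddit4 are thus a description.

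By role, the activity-regulated early genes left after the exclusions by name gave 8 of the 100: Klf2, Midn, Bdnf, Nptx2, Vgf, Rgs2, Rasl11a and Irs2. They come from a list of 56 measured genes, of which 42 were lower at 8 h than 1 h and 1 (Klf2) was called at 1 h in injected against naive mice, with 40 of 56 higher. Bdnf, the neurotrophin, read 8.52, 8.90 and 9.46 (lowest, median and highest) in injected mice at 1 h, against 8.76, 8.62 and 7.70 in naive mice, and the lowest naive value was that of replicate 3 (0.52, adjusted p = 0.444). Vgf, a precursor of secreted neuropeptides, read 12.11, 12.57 and 12.95 against 12.06, 12.57 and 11.82, with overlap (0.41, adjusted p = 0.622). Rgs2, which shortens G protein signals, read 8.92, 9.25 and 9.51 against 9.01, 8.98 and 9.40, also with overlap (0.14, adjusted p = 0.922). The early genes lay a median of 0.39, 0.26, 0.17 and 0.02 above their 8 h mean at 1, 2, 4 and 8 h in injected mice, and 0.03, 0.10, -0.02 and -0.08 above it in naive mice. The arrays of 1 and 8 h, most of them injected, chose these genes, so this profile is a description. The naive values at 1 h include replicate 3, which was low in cortical excitatory neuron markers.

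Genes of the ERK pathway, grouped after their values were seen, were Etv5, the feedback inhibitors Spry3 and Spred1, the ERK-induced Phlda1, and Rnd3. Etv5 read 10.01, 10.44 and 10.59 in injected mice at 1 h, against 10.11, 10.00 and 10.38 in naive mice, and 9.56, 9.77 and 10.15 against 9.80, 9.91 and 9.53 at 8 h. Both sets of mice overlapped at each of these times, and both lay lower at 8 h. Their difference was 0.19 at 1 h (adjusted p = 0.764). Spred1 read 12.41, 12.59 and 12.89 in injected mice at 1 h, against 12.51, 12.81 and 12.53 in naive mice (-0.04, adjusted p = 0.982), and was 1 of the 5 genes that were not higher in injected mice then.

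The ER chaperones and factors of the unfolded protein response gave 6 of the 100, out of 22 measured: Xbp1, the transcription factor of that response, the disulfide isomerases Pdia3 and Pdia4, Sdf2l1, Creld2 and Calr. Of the other 16 of that list, 10 were lower at 8 h than 1 h (median -0.03), so the list as a whole did not run one way. Their median was higher at 2 h than at 1 h: the 6 lay a median of 0.31, 0.40, 0.20 and 0.02 above their 8 h mean at 1, 2, 4 and 8 h in injected mice, and 0.17, 0.19, 0.11 and -0.08 in naive mice. These values share arrays with the rule and are a description. Xbp1 read 12.28, 12.77 and 13.08 in injected mice at 2 h, against 12.36, 12.34 and 12.37 in naive mice, with 10 of 12 injected arrays above the highest naive array. At 1 h, 0 of 12 were, since naive replicate 1 read 12.93. Calr read 8.93, 9.30 and 9.79 in injected mice at 1 h, against 8.87, 9.07 and 8.88 in naive mice (0.39, adjusted p = 0.508). Of this list 1 gene, Creld2, was called at 4 h against 2 h and on the average over times.

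Cytosolic chaperones outside the exclusions gave Bag3, a partner of Hsp70, and Chordc1, Stip1 and Fkbp4, co-chaperones of Hsp90, which makes 4 of 19 measured. Their 8 h minus 1 h values lay close together in injected and naive mice: -0.34 and -0.34 for Chordc1, -0.28 and -0.27 for Bag3, -0.30 and -0.24 for Stip1, and -0.24 and -0.26 for Fkbp4. Fkbp4 read 12.49, 12.72 and 12.95 in injected mice at 8 h, against 12.81, 12.59 and 12.42 in naive mice. At 1 h it read 12.70, 12.996 and 13.14, against 12.66, 12.93 and 13.01, so the groups overlapped at both times. Of this list 0 of 19 were called in the comparisons between injected or saline mice and naive mice, in 4 h minus 2 h or in the interaction. Dnajb5, the co-chaperone of Hsp70 that passed at 1 h and on the average over times, was not on the list. The glucocorticoid-responsive list gave only Ddit4 and Bcl6 of 28, and of its other 26 genes 7 were lower at 8 h than 1 h. The lists of clock (20 measured), cholesterol synthesis (16), ribosome biogenesis (19), cold-inducible (4), medium spiny neuron, cortical, astrocyte and microglia genes gave none.

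**Figure D4:**
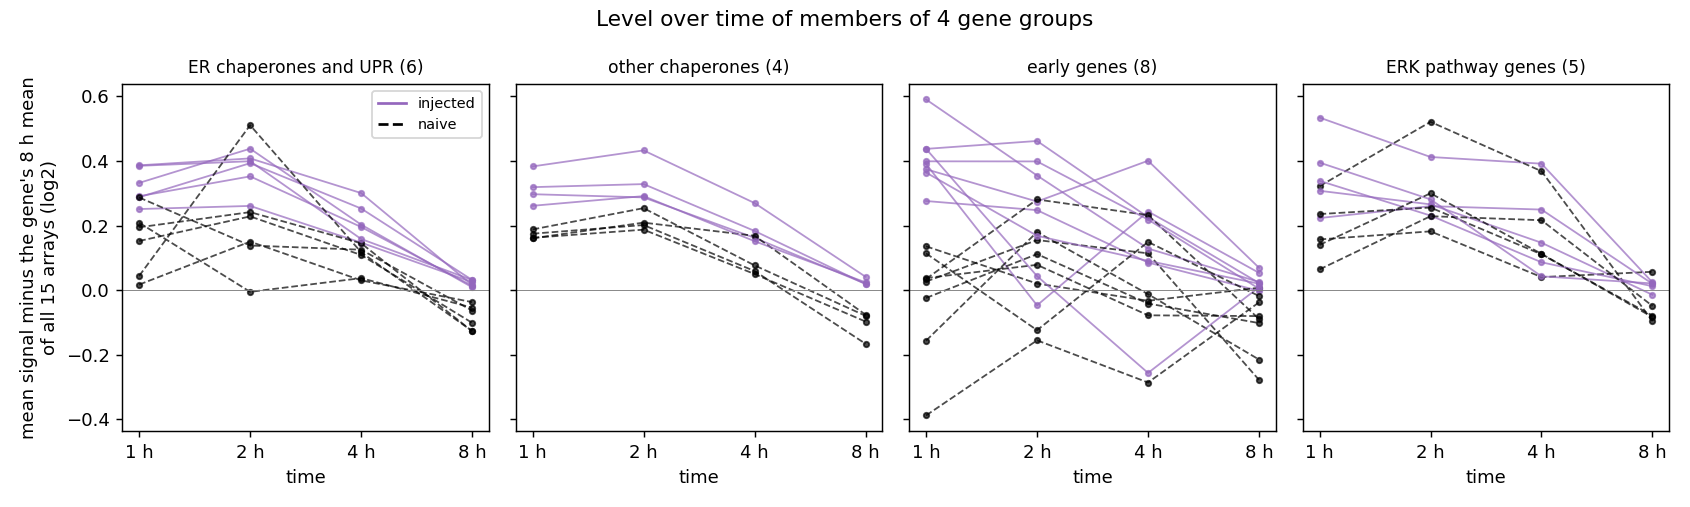
Mean log2 signal of each gene minus its 8 h mean over all 15 arrays (vertical axis), by time, for 6 ER chaperones and unfolded protein response (UPR) genes, 4 other chaperones, 8 early genes and 5 ERK pathway genes. Solid violet lines are means of 12 injected arrays and dashed black lines means of 3 naive arrays. The lines of the ER chaperones are as high or higher at 2 h than at 1 h in injected mice (medians 0.40 and 0.31), and the early genes stand highest at 1 h in injected mice (median 0.39, against 0.03 in naive mice). The arrays of 1 and 8 h also chose the genes, so the lines are a description.

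A further 3 members went with choroid plexus markers from array to array. Ttr, the thyroid hormone carrier of the choroid plexus, read 9.89, 11.11 and 15.86 in injected mice at 1 h, against 9.13, 10.55 and 14.41 in naive mice, and 10.37, 11.32 and 14.78 against 10.80, 13.61 and 11.79 at 8 h. The spread within a group was far beyond any difference between groups (0.47 at 1 h, 95% interval -1.44 to 2.37). Sostdc1, an antagonist of BMP and Wnt signals, had its highest signal at 1 h on an injected array (10.07, median 7.87), and so had Ecrg4, a secreted peptide precursor (11.31, median 8.65). With group means and chips removed, Ttr, Sostdc1 and Ecrg4 correlated with each other over the 60 arrays at r = 0.805 to 0.918. Without the 3 arrays high in choroid plexus markers the rule's value was 0.62 for Ttr, -0.04 for Sostdc1 and 0.02 for Ecrg4. They then ranked 9903, 2865 and 5883 among the genes that could enter. The marker list that picked these arrays holds Ttr and Sostdc1, and only arrays of 1 h were left out. Such a choice raises 8 h minus 1 h in genes that go with the list, so these values and ranks are a description.

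**Figure D5:**
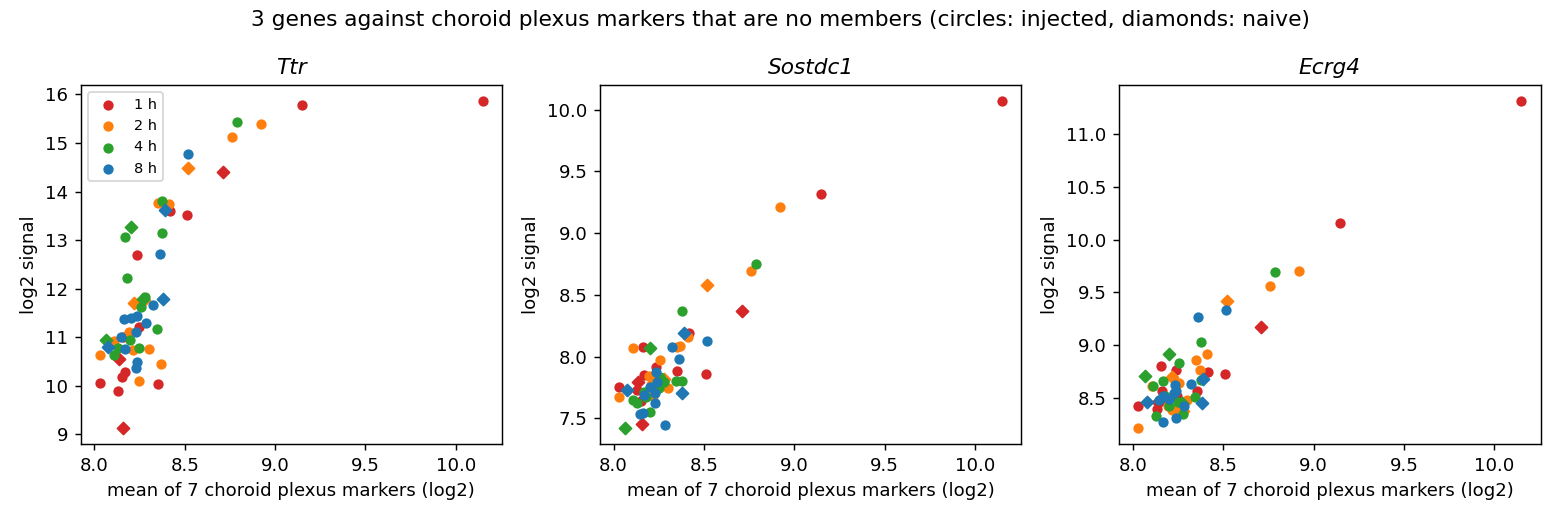
Log2 signal of Ttr, Sostdc1 and Ecrg4 (vertical axes) on each of the 60 arrays, against the mean log2 signal of 7 choroid plexus markers that are not among the 100 genes (horizontal axis), coloured by time. Circles are injected and diamonds naive arrays. Both arrays farthest to the right are injected arrays of 1 h, and Sostdc1 reaches 10.07 and Ecrg4 11.31 there.

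Another 9 genes tracked the cortical excitatory neuron markers from array to array (r of 0.6 or more with group means and chips removed): Galnt9, Sstr2, Myl4, Nptx2, Trbv13-2, Mapk11, Ccn2, Bdnf and Vxn. Their median difference of injected minus naive mice at 1 h was 0.45, against 0.19 for the other 91 genes, of which 86 were higher. The naive array low in those markers gave the lowest reading of Galnt9 at 1 h (9.79, against 10.47, 11.01 and 11.46 in injected mice and 10.76 and 10.73 on the other naive arrays). Sstr2 likewise read 9.45 on it, against 9.97, 10.38 and 10.86 in injected mice and 10.41 and 10.19 on the other naive arrays. The part of tissue makeup in the 1 h difference was not tested. Zdbf2, Rxrg and Dmkn tracked the medium spiny neuron markers in the same way, and none of the 100 reached r = 0.6 with astrocyte, oligodendrocyte, microglia or endothelial markers. Oligodendrocyte markers had medians of 11.96, 11.97 and 11.94 in injected mice at 1, 2 and 4 h, against 12.07 each time in naive mice. At 8 h the medians were 11.99 and 12.01. The ranges overlapped at each time, and the part of these markers in the differences was not tested. Cldn5, the endothelial member, did not differ at 1 h beyond its spread (0.03, adjusted p = 0.994), reading 11.18, 11.65 and 12.11 in injected mice, against 11.66, 11.71 and 11.41 in naive mice.

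Among themselves the 100 genes were only loosely tied from array to array: the median correlation over all pairs, with group means and chips removed, was 0.097 (60 arrays, which share chips). The 4 cytosolic co-chaperones stood closer (median r = 0.505), with Stip1 and Fkbp4 at 0.740, the 6 ER genes had a median of 0.297, and the 8 early genes 0.148. Chordc1 went with Sdf2l1 (0.721) and Pdia4 (0.667), Serpinh1, the collagen chaperone of the ER, with Creld2 (0.713), and Tnfrsf25 with Dok3 (0.615). These correlations are descriptions over arrays that share chips.

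The same genes were also read by other probes. For 61 of the 100 genes the array held 101 further probes, 33 of them with a mean log2 signal of 8 or more, and 32 of these 33 were also lower at 8 h than at 1 h. The exception was a probe of Romo1 (0.06), a mitochondrial protein. For Etv5 the other bright probe changed by -0.36, for Midn by -0.34 and for P4ha1 by -0.32. Of the 68 dimmer probes, 48 were lower.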

How the data were processed

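RNA from mouse striatum was measured on 60 Illumina MouseWG-6 arrays. The authors deposited log2 signals, of which the quantile-normalised table chose the genes and the table not normalised between arrays gave all other values. Their methods name BeadStudio, the BeadArray package and background subtraction; whether the subtraction was applied to the table without normalisation is not stated there. All 45281 probes were quantile normalised here (array medians of 6.71 to 8.76 before and 7.57 after), and 0 signal columns went unused. Each column kept its probe order between both tables on 60 of 60 arrays. Of the probes, 34885 had 1 gene symbol, 18 had several and 10378 had none.

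A model with 20 group means and chip as a random block (correlation 0.2013) was fitted over all probes and arrays with limma 3.58.1 in R 4.3.3, and p-values were adjusted over all probes by Benjamini-Hochberg with a threshold of 0.05. Contrasts over several conditions weighted them equally, and fitted differences can differ slightly from plain means because of the block. The median SE was 0.0932 for injected minus naive mice at 1 h and 0.0503 for 4 h minus 2 h. The code was tested on simulated data. The number of arrays limits the precision, and the spread between arrays is that between pools of mice.

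The members and gene lists were chosen with earlier results of these data known. Genes were named when among the 10 lowest by the rule, when past a test's threshold (the 3 with the smallest p where none passed), when in a list, or at the limit of the 100. Others (Cobl, Ecrg4, Mest, Myl4, Serpinh1, Romo1, Inpp4a, Tlnrd1, Depp1, the ERK group and the genes tracking marker lists) were chosen after their values were seen. The "best probe" of a gene was taken as the brightest. Alternatives were median centring, the deposited normalised values, z-scores within chips, other chip blocks, a replicate block, a brightness filter, a plain t-test and leaving out arrays.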

Additional observations from a re-analysis of the deposited data

How the results depend on the processing

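Counts are of the 100 genes past an adjusted p of 0.05. For 4 h minus 2 h (3 genes), median centring of each array and z-scores within each chip gave 0 each and no chip block gave 1. For injected minus naive mice at 1 h (2 genes), median centring gave 1. With no chip block, with z-scores within each chip and with a plain t-test after Benjamini-Hochberg adjustment the count was 0 each. The t-test had 28 genes at an unadjusted p under 0.05, against 5.48% of all probes. For the mean of the 4 times (8 genes), median centring and z-scores gave 0 each, no chip block gave 2 and chip as a fixed block gave 15. Median centring also put 35 genes above 0 for injected minus naive mice at 2 h and 27 for the interaction. An alternative chosen after seeing the data, without the 3 arrays of 1 h highest in choroid plexus markers, gave 0 genes at 1 h and 2 for the mean of the times. The cause of these shifts was not tested. Leaving out 1 array each gave 2 to 5 genes for 4 h minus 2 h (5 without tianeptine replicate 1 of 4 h), 0 to 3 at 1 h (3 without tianeptine replicate 1 of 1 h), 0 to 9 for the mean of the times, 0 to 1 for saline minus naive mice and 0 to 1 for the drugs, and 0 at 2, 4 and 8 h and for the interaction. At 1 h Klf2 alone passed (1 gene) without imipramine replicate 2 or 3, saline replicate 1 or 2, fluoxetine replicate 2 or 3, or tianeptine replicate 2. For the mean of the times it gave 4 without naive replicate 3 of 4 h, and 5 without naive replicate 1 of 8 h, replicate 3 of 1 h or replicate 3 of 2 h. The call for saline minus naive mice came without naive replicate 1 of 1 h, and that for the drugs without tianeptine replicate 2 of 1 h. With arrays left out, the genes above 0 numbered 9 to 14 for 4 h minus 2 h, 90 to 96, 65 to 76, 62 to 73 and 69 to 80 for injected minus naive mice at 1, 2, 4 and 8 h, 87 to 92 for the mean of the times, 11 to 26 for the interaction and 88 to 94 for saline minus naive mice. Of 1063 values of single genes under all alternatives, 904 kept direction and side of the threshold, 158 no longer passed, 1 newly passed and 0 turned direction. The rule itself kept 87 of the 100 genes with the probe of lowest difference, 91 with the signals normalised here and 79 with a mean of 9 or more. Arrays with the same replicate number did not deviate together throughout (r of -0.625 to 0.636, median 0.218, and 0.017 on different chips). With different numbers the median r was lower (-0.122, and -0.139 on different chips), and 34 of 60 arrays correlated best with an array of their own number. The numbers were not taken to pair the samples, and whether they mark a shared batch was not tested. With the replicate number as a block, the counts were 3 for 4 h minus 2 h, 3 at 1 h, 9 for the mean of the times and 0 in the other comparisons. The median SE and 3 naive arrays at each time limit what could be detected.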
